A study of Mus musculus with 12 samples.

Results

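Hba-a1, Hba-a2, Hbb-bs, Hbb-bt and Alas2 encode the adult hemoglobin chains and the erythroid enzyme of heme synthesis, and their reads were followed across skeletal muscle libraries of C57BL/6N mice. All 5 genes were found by symbol in both deposited count tables, among the 21976 genes that the 2 tables share. Every mouse entered the diet at 6 weeks of age and stayed on it for 18 weeks. Chow mice received regular chow and HFD mice a high-fat diet, both without injection. Vehicle mice were high-fat fed and received 30% DMSO by intraperitoneal injection for 4 days. PCN mice were high-fat fed and received 50 mg/kg PCN, an agonist of the rodent pregnane X receptor, by the same route once a day for 4 days. Each group held 3 libraries, 12 in all, named here by group and the number in their label. The labels do not say that each library came from a separate mouse, so p-values measure the spread between these libraries, which may be technical. They name the tissue only as skeletal muscle.

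Hemoglobin is a tetramer of alpha and beta chains, each holding a heme. Its chains are made in erythroid precursors and in reticulocytes, the young red cells of the blood, which lack a nucleus and still carry messenger RNA. Heme synthesis begins with aminolevulinate synthase, of which Alas2 is the erythroid form and Alas1 the form of other tissues. Muscle fibres make no hemoglobin in quantity and store oxygen on myoglobin, so globin reads in a muscle library are commonly used as a sign of the blood it contains. In such bulk libraries fewer red cells and less RNA per red cell cannot be told apart.

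Library totals ran from 12770308 to 19739226 counts. Fast-fibre and general skeletal muscle markers summed to between 111600 and 210300 CPM (counts scaled to library size) in every library, so the markers of the labelled tissue were present. Slow-fibre genes were uneven in Chow and in both injected groups, and some of them also in HFD. Among the latter, Casq2 stood at 6.70, 19.47 and 17.45 CPM in HFD 4, 30 and 38, and Csrp3 had 103, 1118 and 444 counts. The slow myosin heavy chain gene Myh7 stood at 2.30 CPM in Chow 8, 182 in Chow 17 and 312 in Chow 19, against 1.06 to 2.03 in HFD, and Myl3, a slow myosin light chain gene, at 1.53, 117 and 88.7 against 0.152 to 0.214. Genes of the mitochondrial genome took 10.8% (HFD 4) to 20.4% (Chow 17) of the counts, with Vehicle 55 at 19.5%.

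The alpha genes lie on chromosome 11 (build GRCm38), Hba-a1 at chr11:32283511-32284465 and Hba-a2 at chr11:32296489-32297298, both on the forward strand. The beta genes lie on the reverse strand of chromosome 7, Hbb-bt at chr7:103812524-103813996 and Hbb-bs at chr7:103826534-103828096. Alas2 lies at chrX:150547375-150570638 on the forward strand. Within each pair the coding sequences differed at a single base and encoded the same protein, so the stretch around that base is shown to make clear what the read counting had to tell apart. Positions are counted from 1 at the A of the start codon, the differing base is in capitals, and the stretches come from the GENCODE transcripts. The alpha copies differed by C381T of 429 coding bases (exon 3, chr11:32284318-32284368 and chr11:32297135-32297185).
Hba-a1: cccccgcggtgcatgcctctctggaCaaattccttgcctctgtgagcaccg
Hba-a2: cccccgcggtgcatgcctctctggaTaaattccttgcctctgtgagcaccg
The beta copies differed by C417T of 444 coding bases (exon 3, chr7:103826667-103826717 and chr7:103812658-103812708).
Hbb-bs: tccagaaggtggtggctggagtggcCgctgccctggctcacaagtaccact
Hbb-bt: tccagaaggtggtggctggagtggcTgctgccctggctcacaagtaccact
Of the 50-base windows of each transcript, 67.5% in Hba-a1, 86.9% in Hba-a2, 65.8% in Hbb-bs and 58.3% in Hbb-bt also occurred in the other copy. The assignment of reads from shared stretches is left unstated by the labels, so the split within a pair is uncertain and the copies were also summed.

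Promoters of the members are shown as a description: the 250 bases before the RefSeq start in build GRCm38.p6, with motif matches in capitals. The motifs searched on both strands were the GATA-factor site AGATAA with its variants (TGATAA, then AGATAG, then also TGATAG), the CACCC box CCACACCC with its looser form CCNCNCCC (the former is a case of the latter), CCAAT, and the TATA-like TATAAA with its variant ATAAAA. Erythroid genes are known targets of GATA1, which reads GATA sites, and of KLF1, which reads CACCC boxes.
Hba-a1 (chr11:32283422-32283671, forward strand): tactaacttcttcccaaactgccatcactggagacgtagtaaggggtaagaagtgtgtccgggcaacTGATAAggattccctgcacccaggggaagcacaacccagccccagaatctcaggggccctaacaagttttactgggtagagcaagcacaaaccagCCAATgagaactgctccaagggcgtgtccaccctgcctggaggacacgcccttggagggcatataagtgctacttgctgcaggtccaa
Hbb-bs (chr7:103827929-103828178, reverse strand): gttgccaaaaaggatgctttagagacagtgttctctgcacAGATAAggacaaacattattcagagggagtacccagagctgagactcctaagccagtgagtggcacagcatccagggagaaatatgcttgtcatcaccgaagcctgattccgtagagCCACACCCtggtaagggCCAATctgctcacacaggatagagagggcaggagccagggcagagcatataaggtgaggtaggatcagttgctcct
Hbb-bt (chr7:103813924-103814173, reverse strand): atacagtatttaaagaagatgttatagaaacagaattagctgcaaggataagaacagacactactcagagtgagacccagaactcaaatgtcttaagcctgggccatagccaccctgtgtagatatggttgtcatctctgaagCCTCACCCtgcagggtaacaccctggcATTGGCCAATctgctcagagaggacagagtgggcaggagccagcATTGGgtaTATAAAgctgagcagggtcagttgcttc
Alas2 (chrX:150547167-150547416, forward strand): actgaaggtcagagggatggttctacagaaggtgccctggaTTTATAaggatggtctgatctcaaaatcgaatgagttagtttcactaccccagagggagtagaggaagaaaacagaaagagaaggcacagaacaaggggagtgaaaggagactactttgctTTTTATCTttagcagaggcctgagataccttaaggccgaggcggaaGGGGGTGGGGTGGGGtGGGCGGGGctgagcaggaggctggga
The Hba-a2 promoter was identical to that of Hba-a1 over 247 of 247 compared bases at an offset of 3 bases, whereas the beta promoters matched at 127 of 249 bases without gaps. A GATA match was found in 4 of 5 members and in 26.5% of all 32851 promoters of the table, at -183 in Hba-a1, -210 in Hbb-bs and -86 in Alas2. CCAAT was found in 4 of 5 members, the 4 globins, and in 33.8% of all promoters. A CACCC match in the form CCNCNCCC was found in Hbb-bs, Hbb-bt and Alas2 and in 45.9% of all promoters. The stricter CCACACCC stood only in Hbb-bs among the members and in 3.2% of all promoters. The bare letters CACCC, which were not searched, also stand in the Hba-a1 promoter. A TATA-like match stood in Hbb-bt (at -28) and Alas2 and in 22.8% of all promoters. In Alas2 the matches lay at -209 and -88 on the strand opposite to the gene. The letters catataag near the end of the Hba-a1 and Hbb-bs windows match neither TATA-like form searched. Promoters holding GATA, CACCC and CCAAT together made up 2.7%, with Hbb-bs as the 1 member among them. These matches describe letters in the window and were not tested as binding sites. Their part in the levels across libraries was not tested either.

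Globin reads were scarce and uneven. The summed globins (all 4 genes) stood at 66.2, 128 and 68.3 CPM (Chow 8, 17 and 19), and at 46.0, 49.4 and 57.0 CPM in HFD 4, 30 and 38. In the injected groups the same sum was 42.6, 70.7 and 203 CPM (Vehicle 15, 23 and 55) or 67.7, 72.8 and 59.9 CPM (PCN 5, 11 and 27). Vehicle 55 was the highest library and Chow 17 the next, while the lowest, Vehicle 15, belonged to the same group as the highest. The other 10 libraries lay between 42.6 and 72.8 CPM. Group means were 105.6 ± 85.9 CPM in Vehicle, 87.5 ± 35.1 in Chow, 66.8 ± 6.48 in PCN and 50.8 ± 5.63 in HFD (SD, n = 3). The Vehicle SD was 81.3% of its mean, against 9.70% in PCN and 11.1% in HFD. Leaving out Vehicle 55 took the Vehicle mean to 56.7 CPM, and leaving out Chow 17 took the Chow mean to 67.2 CPM, so that the order of the groups became Chow, PCN, Vehicle, HFD.

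**Figure D1:**
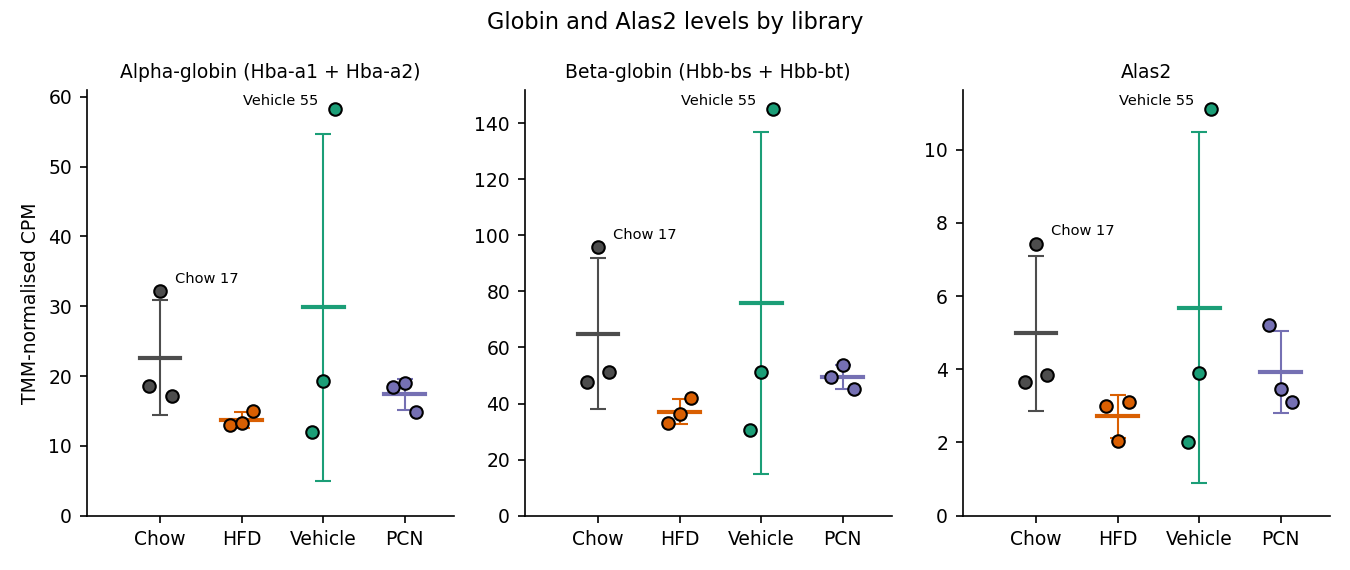
Alpha-globin, beta-globin and Alas2 levels (TMM-normalised CPM, y axes from 0) in each of the 12 libraries by group; bars are group means and whiskers 1 SD (n = 3). Vehicle 55 and Chow 17 are the highest libraries in all 3 panels, and in each panel the 3 HFD libraries lie below the 3 Chow libraries.

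Alpha chains are the shared partner of every adult hemoglobin. Chow libraries 8, 17 and 19 held Hba-a1 at 14.7, 23.2 and 11.1 CPM, HFD libraries 4, 30 and 38 at 8.88, 9.44 and 11.2 CPM. Vehicle libraries 15, 23 and 55 held it at 9.03, 14.9 and 44.2 CPM, PCN libraries 5, 11 and 27 at 14.1, 13.9 and 12.5 CPM. The groups overlapped, with HFD 38 just above Chow 19. For Hba-a2 the PCN libraries ran from 2.37 to 5.04 CPM, the Vehicle libraries from 2.89 to 14, the HFD libraries from 3.73 to 4.04 and the Chow libraries from 3.90 to 8.97. Hba-a2 in HFD 4 lay above Chow 8, so these groups overlapped too.

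Beta chains complete the tetramer, and Hbb-bs supplied most beta reads. Hbb-bs stood at 44.0, 87.5 and 46.4 CPM (Chow 8, 17 and 19), and at 27.8, 33.1 and 38.3 CPM in HFD 4, 30 and 38. All 3 HFD libraries lay below all 3 Chow libraries. The Vehicle libraries 15, 23 and 55 held 27.5, 47.8 and 133 CPM and the PCN libraries 5, 11 and 27 held 45, 47.7 and 42.6 CPM, the latter the narrowest spread of the 4 groups. Hbb-bt ranged from 2.46 CPM (PCN 27) to 11.7 CPM (Vehicle 55), and its HFD libraries (3.01 to 5.33 CPM) overlapped those of Chow (3.58 to 8.33 CPM).

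Alas2, which starts erythroid heme synthesis, stood at 3.66, 7.43 and 3.85 CPM (Chow 8, 17 and 19), and at 2.99, 2.03 and 3.12 CPM in HFD 4, 30 and 38. Here too every HFD library lay below every Chow library. The injected groups gave 2.03, 3.90 and 11.1 CPM in Vehicle 15, 23 and 55 and 5.21, 3.47 and 3.11 CPM in PCN 5, 11 and 27, and they overlapped each other. Alas2 rested on 29 to 205 counts per library. Per kilobase of exon and averaged over the 12 libraries, the level was 74.5 CPM for the beta copies together, 27.2 for the alpha copies together and 1.80 for Alas2, so the beta copies were 41.4-fold and the alpha copies 15.1-fold above Alas2.

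Across libraries that differed 4.77-fold in summed globins, the proportions among alpha, beta and Alas2 varied less. Beta reads exceeded alpha reads 2.49-fold (Vehicle 55) to 3.04-fold (PCN 27). A chi-square test over the 12 libraries detected no variation beyond counting error (chi-square 16.2, 11 degrees of freedom, p = 0.135). Globin reads exceeded Alas2 reads 13.0-fold (PCN 5) to 24.3-fold (HFD 30), again not detectably beyond counting error (chi-square 14.3, p = 0.218). With 29 to 205 Alas2 counts per library, the latter test could miss variation of moderate size. Vehicle 55 had the highest level of each member and the lowest beta to alpha ratio. Without Vehicle 55 and Chow 17, an alternative added after seeing the data, the chi-square for beta to alpha was 6.71 (9 degrees of freedom, p = 0.668). The log2 beta to alpha ratio was 1.51 ± 0.09 in PCN and 1.36 ± 0.05 in Vehicle (SD, n = 3, exact permutation p = 0.1, the smallest that 3 against 3 allows). Neither log2 ratio differed over the 4 groups (exact permutation p = 0.233 for beta to alpha and 0.882 for globin to Alas2, 369600 arrangements). Counting error treats reads as independent molecules, which reads without molecular identifiers are not.

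Log2 levels of alpha and beta followed each other over the 12 libraries (Pearson's r = 0.988, Spearman's rho = 0.958, permutation p = 1e-05 for each, the smallest that 100000 permutations can give, adjusted p = 0.00013 over 13 relations). Without Vehicle 55 and Chow 17, the libraries farthest from the median, r was 0.952. Alas2 followed the summed globins with r = 0.949 (permutation p = 4e-05, adjusted p = 0.00026) and rho = 0.895 (permutation p = 0.00014, adjusted p = 0.00091). Without those libraries r was 0.817 (permutation p = 0.00277), so the relation held without them.

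**Figure D2:**
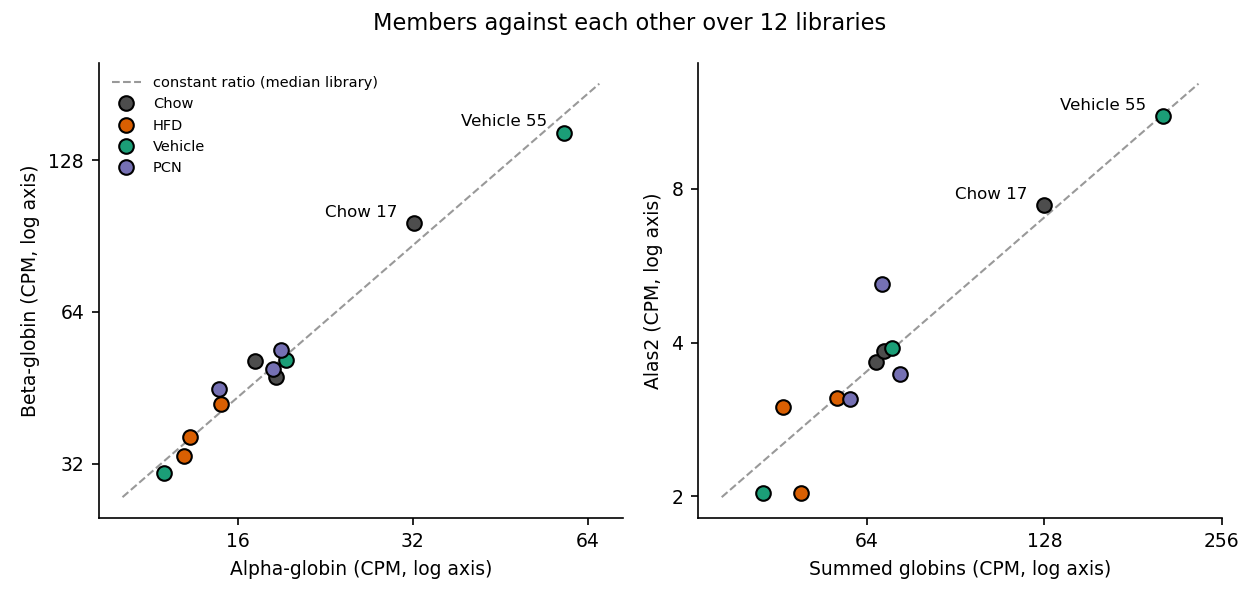
Left, beta against alpha globin; right, Alas2 against summed globins, each point 1 of 12 libraries coloured by group, both axes CPM on a log scale, with a dashed line of constant ratio at the median library. The points lie along the constant-ratio line from the lowest library to Vehicle 55 (r = 0.988 and 0.949).

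The split between near-identical copies behaved differently. Hba-a1 took 65.0% (Chow 19, exact 95% interval 59.4 to 70.4%) to 84.1% (PCN 27, 79.6 to 87.9%) of alpha reads, more variation than counting error gives (chi-square 40.8, p = 2.58e-05). Hbb-bt took 5.45% (PCN 27, 4.11 to 7.07%) to 16.1% (HFD 4, 12.7 to 20.02%) of beta reads (chi-square 58.2, p = 1.99e-08). With PCN 27 and HFD 4 left out, a choice made after their values were seen, the chi-square over the remaining 10 libraries was 16.9 for the Hbb-bt share, no longer past the 0.05 threshold, and 22.4 for the Hba-a1 share, still past it. Between HFD and Chow the Hba-a1 share differed by -0.299 percentage points and the Hbb-bt share by 2.60 (exact permutation p = 0.9 and 0.5). The sums do not depend on this split.

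**Figure D3:**
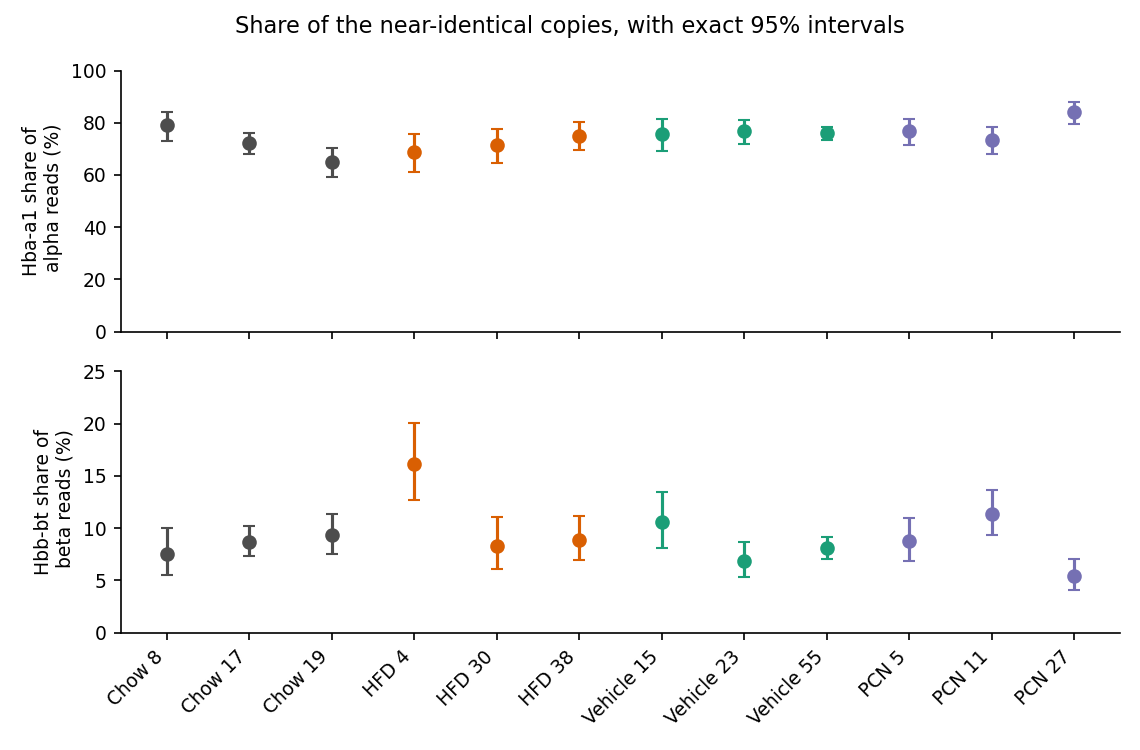
Share of alpha reads assigned to Hba-a1 (top) and of beta reads assigned to Hbb-bt (bottom), in percent, for each of the 12 libraries coloured by group, with exact 95% binomial intervals that cover counting error only. PCN 27 has the highest Hba-a1 share (84.1%) and the lowest Hbb-bt share (5.45%), and HFD 4 the highest Hbb-bt share (16.1%).

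The comparison of HFD with Chow asks how the diet bears on these transcripts. All 5 members had lower estimates in HFD, but none passed the test. Summed globins differed by -0.76 ± 0.25 on the log2 scale (SE), a level 1.70-fold lower (adjusted p = 0.636 in edgeR's quasi-likelihood test). Alpha differed by -0.70 ± 0.23, beta by -0.79 ± 0.26 and Alas2 by -0.86 ± 0.32 (edgeR adjusted p = 0.631, 0.636 and 0.635). Among single copies the estimates ran from -0.46 in Hbb-bt to -0.82 in Hbb-bs.

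edgeR called 0 of 12686 genes in this comparison (0.0%), with 977 at an unadjusted p under 0.05, and DESeq2 called 40 (0.263%), none of them a member. At an unadjusted p under 0.05, 4 of 5 members were lower, all but Hbb-bt, against 3.92% of all genes tested. Libraries of the groups did not overlap for 2 of 5 members, Hbb-bs and Alas2, with HFD below Chow, against 6.38% of all genes. The members share their source in each library and are not independent of each other. An exact permutation test of the summed globins gave p = 0.1, the smallest that 3 against 3 allows.

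Part of the estimate came from 1 library: without Chow 17 the summed globins differed by -0.40 and Hbb-bt by -0.06, while the direction stayed for all 5 members. Without the filter on low counts, edgeR called the summed globins (adjusted p = 0.000412), alpha (0.00599), beta (0.000306), Hbb-bs (0.000129) and Hba-a1 (0.0113) lower in HFD. The estimates were nearly the same, so that the call depends on this filter. In that setting 237 of 24093 genes were called in either direction. The mitochondrial share was 15.2 to 20.4% in Chow and 10.8 to 15.3% in HFD, and in Chow 17 and 19 slow-fibre genes were high. Their part in the globin difference was not tested. In the authors' deposited table Hbb-bs had a log2 fold change of -0.62 with adjusted p = 0.367, and Alas2 one of -0.51 with adjusted p = 0.984. A DESeq2 refit of the same counts gave -0.83 for Hbb-bs and -0.87 for Alas2. The reason for this difference was not tested, so the sizes of the deposited estimates are not compared with those here.

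The comparison of PCN with Vehicle asks how the drug bears on them in high-fat-fed mice. Every member had a lower estimate in PCN and none passed the test: summed globins differed by -0.66 ± 0.55 (SE, edgeR adjusted p = 0.998), alpha by -0.78 ± 0.57, beta by -0.61 ± 0.54 and Alas2 by -0.53 ± 0.59. edgeR called 0 of 12833 genes (0.0%), with 362 at an unadjusted p under 0.05, and DESeq2 called 0. No member reached an unadjusted p under 0.05 on the lower side, where 1.47% of all genes did. Members with PCN entirely below Vehicle numbered 0 of 5, against 4.08% of all genes. The direction rested on Vehicle 55: without it all 5 estimates turned positive, at 0.23 for summed globins, 0.14 for alpha, 0.26 for beta and 0.39 for Alas2. Slow-fibre genes and mitochondrial reads also varied within these groups. Tpm3, which encodes a slow-fibre tropomyosin, stood at 77.5 CPM in PCN 5 against 9.80 and 12.3 in the other PCN libraries, and at 30.2 CPM in Vehicle 55 against 10.8 and 16.0 in the other Vehicle libraries. Casq2, a calcium-binding protein of slow fibres and heart, stood at 67.5 CPM in PCN 5 and 39.5 in Vehicle 55, against 6.50 to 13.2 in the remaining 4 libraries. Mitochondrial genes took 12.7% to 19.5% of the counts in Vehicle and 11.1% to 18.5% in PCN. The part of these differences in the globin values was not tested.

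Vehicle and HFD share the diet and differ by the injections. Summed globins were 2.08-fold higher in Vehicle by estimate (1.05 ± 0.48 on the log2 scale, SE) without passing the test (adjusted p = 0.393 in the edgeR fit of all 12 libraries). Alas2 differed by 1.06 ± 0.53 (edgeR adjusted p = 0.424). edgeR called 0 of 13375 genes here (0.0%), with 1708 at an unadjusted p under 0.05, and DESeq2 called 213 of the 5785 genes to which it gave an adjusted p (3.68%). It gave none to Alas2, Hba-a2 and Hbb-bt, and did not call Hba-a1 (adjusted p = 0.0769) or Hbb-bs (0.244). Hba-a1 was the 1 member at an unadjusted p under 0.05, against 6.26% of all genes higher at that level. No member had all Vehicle libraries above all HFD libraries, against 11.8% of all genes. Without Vehicle 55 the estimate for summed globins was 0.16, and those of Hba-a2 (-0.05) and Hbb-bt (-0.24) turned negative.

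**Figure D4:**
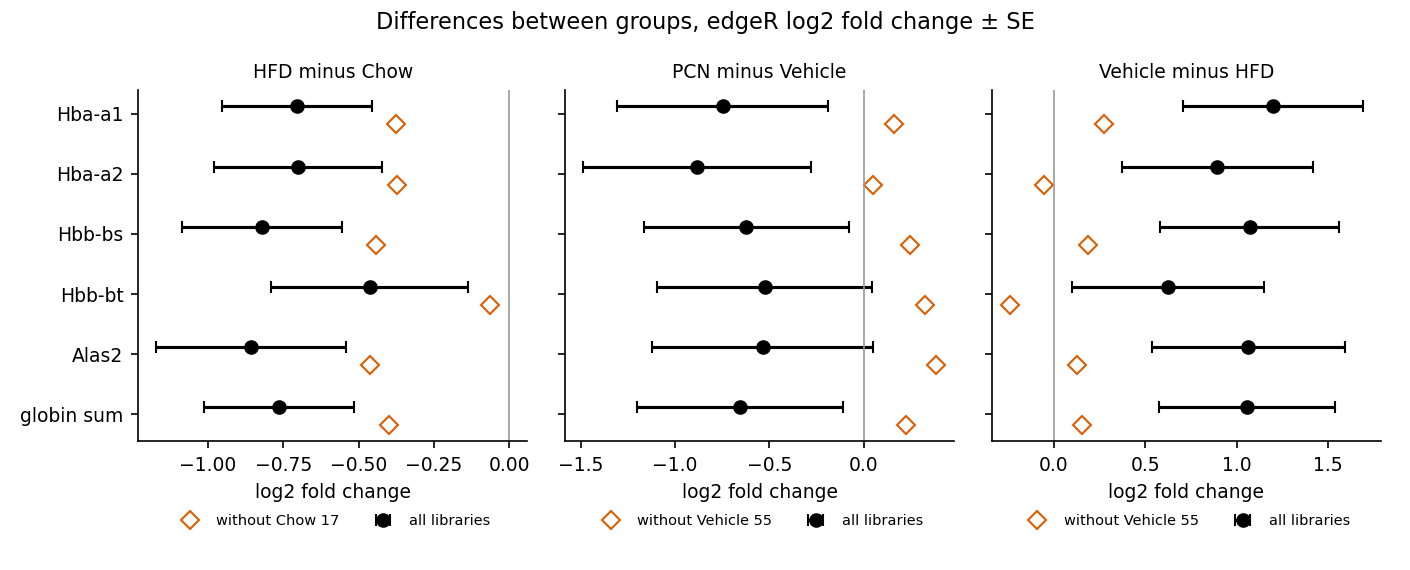
Log2 fold changes of the 5 members and of the summed globins (globin sum) in 3 comparisons; black points with SE bars are the edgeR estimates from all libraries of the comparison's fit, and open diamonds those without the library highest in globin reads. Diamonds lie nearer 0 than the points in HFD minus Chow and across 0 for all 6 rows in PCN minus Vehicle.

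Over the 4 groups no difference passed the test for summed globins (edgeR adjusted p = 0.559, exact permutation p = 0.485), alpha (0.525), beta (0.574) or Alas2 (0.613), in a test that called 24 of 13375 genes (0.179%). Setting Chow against all 9 high-fat-fed libraries gave summed globins 0.30 ± 0.38 higher in Chow on the log2 scale (SE, edgeR adjusted p = 0.922, exact permutation p = 0.5), where 5 genes were called (0.0374%). Without Chow 17 this estimate was -0.08. In the same fit summed globins differed by 0.27 ± 0.48 between Vehicle and Chow, by -0.39 ± 0.48 between PCN and Chow and by 0.39 ± 0.48 between PCN and HFD (edgeR adjusted p = 0.942, 0.745 and 0.676). These 3 comparisons called 0.015%, 0.127% and 4.14% of genes, none of them a member. No neighbours in the order Vehicle, Chow, PCN, HFD differed by a called amount.

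Other genes of heme and of red cells were examined from lists. Of the 8 remaining enzymes of heme synthesis, all were tested and 0 were called in either comparison. Their median log2 difference was -0.11 in HFD against Chow, with 7 of 8 below 0, and 0.00 in PCN against Vehicle, beside medians of 0.00 and 0.01 over all genes. Alas1, the form of other tissues, stood at 95.7 ± 17.8 CPM in HFD and 117 ± 15.6 in Chow (SD, n = 3) and had r = 0.207 with the summed globins. Alad, the enzyme after it, was highest in the same library as the globins: 8.08, 11.8 and 19.5 CPM in Vehicle 15, 23 and 55 and 10.7, 13.3 and 9.21 CPM in Chow 8, 17 and 19. In PCN 5 it reached 15.4 CPM. The mean log2 level of the 8 enzymes had r = 0.696 with the summed globins (permutation p = 0.0109, adjusted p = 0.0284, rho = 0.699), and r = 0.600 without Vehicle 55 and Chow 17 (permutation p = 0.0681).

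Of 18 genes of heme breakdown and iron handling, 0 were called, with medians of -0.08 and 0.02. Slc40a1, the iron exporter ferroportin, stood at 66.1 CPM in Vehicle 55 and 30.7 and 34.8 CPM in Vehicle 15 and 23, and Flvcr1, a transporter linked to heme export, at 19.1 CPM against 8.99 and 8.10. Ftl1, the ferritin light chain, gave 65.0 ± 23.5 CPM in PCN and 42.2 ± 4.05 in Vehicle (SD, n = 3), not called by edgeR (adjusted p = 0.998). The list as a whole had r = 0.405 with the summed globins (adjusted permutation p = 0.252, rho = 0.196).

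Defining genes of the red cell membrane were at or near 0. Slc4a1, the anion exchanger band 3, had 0 to 8 counts per library and Epb42, a membrane skeleton protein, 0 to 3. Gata1 and Klf1, the regulators of erythroid genes, had 0 to 2 and 0 to 3. Trim10, an erythroid maturation gene, had 6 counts in Vehicle 55, 1 in Chow 17 and 0 in the other 10 libraries, an observation on very few reads.

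Of 24 red cell membrane and enzyme genes, 11 were tested in HFD against Chow and 12 in PCN against Vehicle, and 0 were called. Sptb, Ank1, Epb41, Tmod1 and Bpgm among them had 751 to 10453 counts in every library and are also expressed by muscle. Of 20 genes of erythroid maturation 7 were tested in each comparison and 0 were called. The mean level of each list had a raw relation to the summed globins (r = 0.684 and 0.744, adjusted permutation p = 0.0349 and 0.0244, rho = 0.622 and 0.462), and r fell to 0.221 and 0.536 without Vehicle 55 and Chow 17.

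Markers of other blood cells showed no relation with the globins that passed the test. The mean level of 3 platelet genes had r = 0.264 and that of 5 neutrophil genes r = -0.01 with the summed globins (adjusted permutation p = 0.444 and 0.977, rho = 0.147 and -0.147). The platelet list summed to 6.17 to 6.54 CPM in Chow and, without overlap, to 4.28 to 4.68 CPM in HFD. It covered 4.05 to 5.20 CPM in Vehicle and 2.84 to 5.47 CPM in PCN. All 3 platelet genes tested had estimates below 0 in both comparisons, with a median log2 difference of -0.48 in HFD against Chow and -0.63 in PCN against Vehicle, and 0 were called. Their part in the globin differences was not tested. The neutrophil list summed to between 4.60 and 20.9 CPM, both in PCN. Pf4, a platelet chemokine, had 20 counts in Vehicle 55 and 23 and 25 in Vehicle 15 and 23. Endothelial genes, a sign of vessels, had r = 0.485 (adjusted permutation p = 0.177, rho = 0.476), and mural cell genes r = 0.404 (adjusted permutation p = 0.252, rho = 0.364). In HFD against Chow, 3 of 13 endothelial and 2 of 8 mural cell genes were lower at an unadjusted edgeR p under 0.05. That compares with 3.92% of all genes, and 0 of either list were higher at that level or called. The part of vessel genes in the globin difference was not tested. T and NK cell markers summed to under 1 CPM in every library. Over the 8 of 11 listed genes measured in all 12 libraries, B cell markers stood apart in 1 HFD library. Their sum reached 5.73 CPM in HFD against at most 0.579 CPM in the other groups. HFD 4 held 42 counts of Igkc, the kappa light chain constant gene, against 0 to 9 in the other 11 libraries. Ighm, also listed, was measured only in Chow and HFD and is not in that sum. It went the other way, at 40.05 CPM in HFD 4, 76.6 and 76.2 CPM in HFD 30 and 38, and 50.8 to 68.5 CPM in Chow. The part of B cell genes in the globin levels was not tested.

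Myoglobin (Mb) is the oxygen store of oxidative fibres. Its level was 1306, 3139 and 1966 CPM in the Chow libraries 8, 17 and 19 and 705, 1547 and 1886 CPM in the HFD libraries 4, 30 and 38. The Vehicle libraries 15, 23 and 55 held 645, 1440 and 4023 CPM and the PCN libraries 5, 11 and 27 held 3596, 814 and 769 CPM. Mb was thus highest in the library highest in globins, and the second by these values was PCN 5, whose summed globins stood at 67.7 CPM. These values were scaled separately for Chow with HFD and for Vehicle with PCN. On the common scale of the 12 libraries, Mb and Cygb together reached 3829 CPM in Vehicle, 3400 in PCN and 3380 in Chow. The groups overlapped, and the correlation of Mb with the summed globins over the 12 libraries was r = 0.698, given as a description. Cygb, the cytoglobin of fibroblast-like cells, had 57 to 161 counts per library. The embryonic globin genes Hba-x, Hbb-bh1 and Hbb-y were looked up by symbol and had no entry in either count table, so they were not analysed.

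The share of mitochondrial reads had r = 0.763 with the summed globins (permutation p = 0.00257, adjusted p = 0.0111, rho = 0.650) and r = 0.453 without Vehicle 55 and Chow 17 (permutation p = 0.187). Slow-fibre genes had r = 0.582 (adjusted permutation p = 0.0775, rho = 0.573), over the 3 of 12 listed genes measured in all 12 libraries (Tpm3, Casq2 and Pln, without Myh7 or Myl3), and fast-fibre genes r = -0.372 (adjusted permutation p = 0.278, rho = -0.217). The part of these shifts in the globin levels was not tested.

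**Figure D5:**
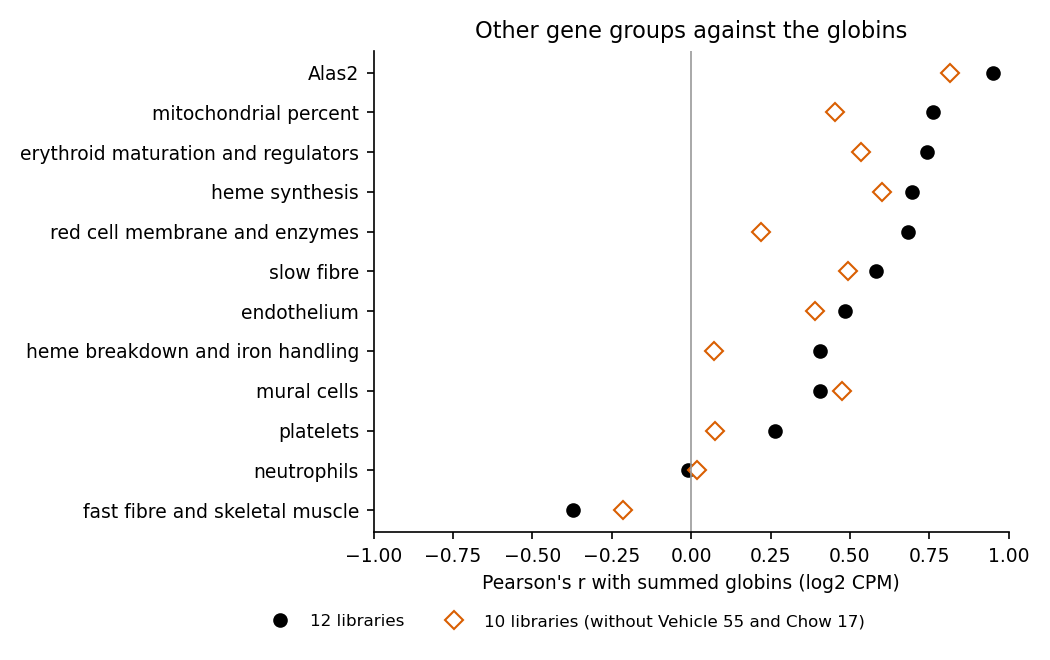
Pearson's r between the log2 level of the summed globins and Alas2, the share of mitochondrial reads or the mean log2 level of each gene list, over 12 libraries (black) and over the 10 without Vehicle 55 and Chow 17 (open diamonds). Alas2 keeps r = 0.817 in the 10 libraries, while no gene list exceeds the 0.600 of heme synthesis there.

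Among 11646 genes ranked by their correlation with the summed globins over the 12 libraries, no gene outside the members reached the r of Alas2. The globin genes are themselves parts of that sum. Even so, Hba-a2 (r = 0.905) and Hbb-bt (r = 0.826) lay below Alas2, and 11 genes outside the members lay above Hbb-bt. Among the 10 most alike were Sema4b (r = 0.904), Swt1 (0.892), Bola3 (0.884), Idh3g (0.870), Cdc37 (0.869), St13 (0.867), Drp2 (0.859), Plin3 (0.849) and Nars2 (0.848). Without Vehicle 55, r was 0.747 for Sema4b and 0.711 for Swt1, but 0.934 for Bola3, an iron-sulfur cluster assembly factor, and 0.882 for Idh3g, a subunit of the mitochondrial isocitrate dehydrogenase. Alas2 itself kept 0.905 there. These correlations across 12 libraries share depth and composition and are given as a description.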

How the data were processed

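RNA was measured in 12 skeletal muscle libraries. The deposited files hold whole-number counts per gene in 2 tables of 6 libraries (Chow with HFD, Vehicle with PCN), beside the authors' own comparison columns. The submitters' processing notes name HISAT2, HTSeq, DESeq2 and GRCm38; versions, strand and multiply mapped reads: not given in the sources used here. Counts were fitted with edgeR 4.0.16 (R 4.3.3; TMM, filterByExpr with a minimum count of 10, robust quasi-likelihood F test, Benjamini-Hochberg over all genes, threshold 0.05), within each table or, across tables, on all 12 libraries and their shared genes. Levels are TMM CPM over the 12 libraries; named genes outside the members are in CPM of their own table. Log2 levels for correlations used a prior count of 2. Summed copies replaced their rows in a refit. DESeq2 1.42.0, DESeq2 size factors, other filters and leaving out libraries were tried. On simulated counts edgeR recovered 81% (HFD against Chow, 12686 genes) and 50% (PCN against Vehicle, 12833 genes) of genes changed by 1 on the log2 scale. Only genes with a mean above 5 CPM were changed there. The medians of Alas2, Hba-a2 and Hbb-bt over the 12 libraries were 3.56, 4.15 and 4.03 CPM, so these shares may not hold for them. The shares also average over genes of differing spread, and the Vehicle SD of the summed globins was 81.3% of its mean. The 50% share may therefore not hold for the summed globins either. Replicates of a group differed by more than counting noise. Named were all members, up to 6 genes per list by lowest p in HFD against Chow and 4 in PCN against Vehicle as candidates, and the 10 genes most like the summed globins; some of these genes are not reported here. Members, lists and rules were chosen with earlier results of these data known.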

Additional observations from a re-analysis of the deposited data

How the results depend on the processing

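No paired analysis was possible because the libraries carry unique numbers and no 2 groups share any. Estimates below are log2 differences. In HFD against Chow, removing the low-count filter brought alpha (-0.72, edgeR adjusted p = 0.00599), beta (-0.80, 0.000306) and summed globins (-0.78, 0.000412) past the threshold; the cause was not tested. Over all alternatives the adjusted p of the summed globins ran from 0.000412 to 0.998. Genes called there were 40 with DESeq2, 237 of 24093 without the filter and 0 to 219 leaving out 1 library (219 without Chow 19). In PCN against Vehicle, 21 of 24453 were called without the filter and 0 to 0 leaving out 1 library. Hbb-bt reversed to 0.17 without Chow 17 and 19. Leaving out 1 library, PCN against Vehicle ranged from -1.03 to 0.23 for summed globins, -1.16 to 0.14 for alpha, -0.99 to 0.26 for beta, -0.93 to 0.39 for Alas2, -1.003 to 0.25 for Hbb-bs, -1.13 to 0.16 for Hba-a1, -1.26 to 0.051 for Hba-a2 and -0.87 to 0.32 for Hbb-bt, positive only without Vehicle 55. Vehicle against HFD ranged from -0.054 to 1.26 for Hba-a2 and -0.24 to 0.92 for Hbb-bt. Chow against the 9 high-fat-fed libraries ranged from -0.081 to 0.60 for summed globins, -0.11 to 0.55 for alpha, -0.071 to 0.62 for beta, -0.065 to 0.66 for Alas2, -0.059 to 0.63 for Hbb-bs, -0.17 to 0.48 for Hba-a1 and -0.17 to 0.53 for Hbb-bt, negative only without Chow 17. The chi-square per degree of freedom of the Hbb-bt share was 1.87 without PCN 27 and HFD 4, an alternative added after seeing the data, as was leaving out Vehicle 55 and Chow 17 together. Alas2 rested on as few as 29 counts and Hbb-bt on 43, which limits their precision.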
